A study of Mus musculus with 9 samples.

Results

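Cell cycle and proliferation genes were followed in prostate tissue of mice with different numbers of intact Srd5a2 alleles, which encodes a steroid 5-alpha-reductase, an enzyme that turns testosterone into dihydrotestosterone. The list has 41 genes, picked by name, of the 54532 in the deposited count table: 13 act mainly in the G1/S transition and S phase and 28 in G2 and mitosis. All 41 passed the filter on low counts, which kept 16836 genes. Bulk RNA-seq covered prostates of Srd5a2-null mice (Srd5a2-/-, KO), heterozygotes (Srd5a2+/-, Het) and wild-type mice (WT), with 3 libraries per genotype and 9 in all. The alleles are germline, heterozygous males were crossed with C57BL6 wild-type females, and KO males came from the third generation. The sources used here do not state ages, the lobes taken or whether each library is 1 animal, and the p-values therefore measure a spread between libraries that may be technical.

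Dividing cells switch on these genes in waves. At the G1/S transition E2F factors and cyclin E turn on the genes of DNA replication, among them the MCM helicase, the sliding clamp PCNA and the enzymes that make deoxynucleotides. In G2 the factor FOXM1, with the MuvB complex and B-MYB, turns on the mitotic genes, and cyclin B with CDK1 drives entry into mitosis. APC/C, a ubiquitin ligase that works with CDC20 and UBE2C, then destroys cyclin B and lets the cell leave mitosis. Mki67, the gene of the Ki-67 antigen, and Top2a, topoisomerase II alpha, serve as counts of cycling cells in tissue. The adult rodent prostate divides slowly when androgen is steady, and androgen given back after castration sets off a round of proliferation.

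Library totals ran from 16233392 to 24017791 counts. Srd5a2 was at 0.934, 0.512 and 1.15 CPM (read counts scaled to the library size with TMM factors) in KO, at 3.68, 5.19 and 2.37 CPM in Het, and at 2.30, 5.50 and 8.81 CPM in WT, so the KO libraries were lowest (KO against WT -2.67 on the log2 scale, SE 0.62, edgeR adjusted p = 1). Sbp, a secretion of the ventral lobe, was at 7.26 CPM in Het library 2 and at 0.994 and 16.0 CPM in WT libraries 1 and 3, against 34370 to 144000 CPM in the other 6 libraries. Genes with at least 1 read numbered 20160 to 20476 in KO, 16878 to 17804 in Het and 17940 to 20566 in WT. Sbp splits libraries within genotypes, and results on the cell cycle are also given without the 3 libraries low in it. In bulk tissue, fewer cycling cells and less RNA per cycling cell cannot be told apart.

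Both markers of cycling cells, Mki67 and Ube2c, were present in every library, with at least 55 reads each. As a group the mitotic transcripts were scarce. On the deposited FPKM scale, which allows for gene length, the median level of the 28 mitosis members was 0.878 in KO, 0.735 in Het and 1.38 in WT, and 17, 19 and 7 of them averaged under 1 FPKM. Cdc20 had the highest level among them in KO and WT, at 3.40 and 6.17 FPKM, and Ccnb2 in Het at 3.24 FPKM. S phase members were more abundant, with medians of 2.03, 2.37 and 2.50 FPKM in KO, Het and WT. Pcna stood highest, at 14.9 FPKM in KO, 17.1 in Het and 16.1 in WT.

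Mitotic and replication promoters carry different motifs, which is why a few are printed here. RefSeq promoter windows on GRCm38.p6 (250 bases before to 50 after a RefSeq start) were at hand for 34 of the 41 members. That start can differ from the start of the gene as deposited. For E2f1, Cdca8 and Mcm7 every window lay wholly inside the deposited gene. For a gene with several windows, a motif in any of them was counted. Capitals mark 3 kinds of motif, searched on both strands: CCAAT, the box bound by NF-Y; TTTGAA or TTCGAA, forms of the cell cycle genes homology region (CHR) through which MuvB acts; and the E2F-like words TTTCCCGC, TTTCGCGC, TTTGCCGC and TTTGGCGC. Where 2 motifs overlap they run together in the capitals. The first 4 windows belong to mitosis members described below, and the last to a subunit of the replicative helicase.
Ube2c (chr2:164769679-164769978, plus strand): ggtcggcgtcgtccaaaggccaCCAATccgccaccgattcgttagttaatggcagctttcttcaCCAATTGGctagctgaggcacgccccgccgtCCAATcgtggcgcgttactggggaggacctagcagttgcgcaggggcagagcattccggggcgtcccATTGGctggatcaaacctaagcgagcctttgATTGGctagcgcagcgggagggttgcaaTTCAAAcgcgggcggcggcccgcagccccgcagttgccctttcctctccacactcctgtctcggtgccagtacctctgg
Aurka (chr2:172370521-172370820, minus strand): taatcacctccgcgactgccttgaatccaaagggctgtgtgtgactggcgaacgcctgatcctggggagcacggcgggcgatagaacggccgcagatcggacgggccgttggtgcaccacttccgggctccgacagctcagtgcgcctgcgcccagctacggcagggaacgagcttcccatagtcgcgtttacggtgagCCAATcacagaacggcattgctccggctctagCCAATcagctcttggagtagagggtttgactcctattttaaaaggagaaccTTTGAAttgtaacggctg
Mki67 (chr7:135716330-135716629, minus strand): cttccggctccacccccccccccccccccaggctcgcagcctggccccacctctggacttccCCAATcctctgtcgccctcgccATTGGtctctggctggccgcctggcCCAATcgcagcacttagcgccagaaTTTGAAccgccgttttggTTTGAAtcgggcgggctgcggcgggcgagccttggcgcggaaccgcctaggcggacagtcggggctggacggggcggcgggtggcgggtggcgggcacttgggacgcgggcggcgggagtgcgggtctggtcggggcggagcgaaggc
Cdc20 (chr4:118437294-118437593, minus strand): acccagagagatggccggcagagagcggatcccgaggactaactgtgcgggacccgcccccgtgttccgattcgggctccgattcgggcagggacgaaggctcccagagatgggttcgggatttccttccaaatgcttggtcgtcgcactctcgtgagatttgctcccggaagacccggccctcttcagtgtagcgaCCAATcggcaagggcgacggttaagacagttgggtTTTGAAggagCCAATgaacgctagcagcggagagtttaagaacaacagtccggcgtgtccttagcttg
Mcm6 (chr1:128359656-128359955, minus strand): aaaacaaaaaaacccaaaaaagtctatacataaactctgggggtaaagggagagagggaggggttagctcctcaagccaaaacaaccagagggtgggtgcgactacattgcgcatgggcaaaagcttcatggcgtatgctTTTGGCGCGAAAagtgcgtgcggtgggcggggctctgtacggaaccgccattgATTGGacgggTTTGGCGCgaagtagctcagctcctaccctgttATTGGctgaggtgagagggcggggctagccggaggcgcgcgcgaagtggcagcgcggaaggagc

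A CHR-like word stood in the window of 17 of 23 mitosis members (73.9%) and of 2 of 11 S phase members (18.2%), against 21.7% of the 27025 genes in the table. In every one of those 17 windows a CCAAT box was present as well, a pairing found in 8.61% of all genes. CCAAT boxes, with or without a CHR-like word, were in 82.6% of mitosis members, 63.6% of S phase members and 41.1% of all genes. E2F-like words were in 4 of 11 S phase members (36.4%), namely Mcm3, Mcm5, Mcm6 and Mcm7, in 1 of 23 mitosis members (Cdk1, 4.35%) and in 2.6% of all genes. The Ube2c window holds 6 CCAAT boxes and 1 CHR-like word, and the Mcm6 window 3 E2F-like words and no CHR-like word. E2f1 was counted as having no E2F-like word, in a window inside the deposited gene that may miss its promoter. The same limit holds for Cdca8 and Mcm7. These matches describe letters in a window and say nothing of what binds there.

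Mitosis and S phase members gave different patterns across the libraries. A library score, the mean log2 CPM of a group's members less its mean over the 9 libraries, was -1.31, -0.19 and 0.66 for mitosis in the KO libraries. Het libraries scored -0.48, -0.59 and 0.01, and WT libraries 0.34, 1.07 and 0.50. Het libraries all lay below WT libraries. KO library 1 was the lowest of the 9, and KO library 3 lay above WT libraries 1 and 3 but below WT library 2. S phase scores were -0.32, -0.12 and 0.43 in KO, 0.05, -0.34 and 0.03 in Het, and -0.15, 0.33 and 0.10 in WT, and the 3 genotypes overlapped. The difference within each library, mitosis less S phase, was -0.99, -0.07 and 0.23 in KO, -0.53, -0.25 and -0.02 in Het, and 0.49, 0.74 and 0.40 in WT. All 3 WT libraries stood above the 6 others on this measure, which was chosen after the values were seen. WT libraries also stood above the 6 others for summed CPM of mitosis members over that of S phase members, at 0.61, 0.862 and 1.13 in KO, 0.789, 0.569 and 0.954 in Het, and 1.23, 1.61 and 1.26 in WT. Scores of 37 replication genes outside the members were -0.304, -0.039 and 0.284 in KO, and 0.135, 0.436 and 0.341 in WT. Het libraries scored -0.34, -0.336 and -0.178 on these genes, all below WT. KO library 3 had a higher mitosis score than WT library 3 and a lower score on these genes. With these genes in place of the S phase members, WT libraries would therefore not all stand above the others.

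**Figure D1:**
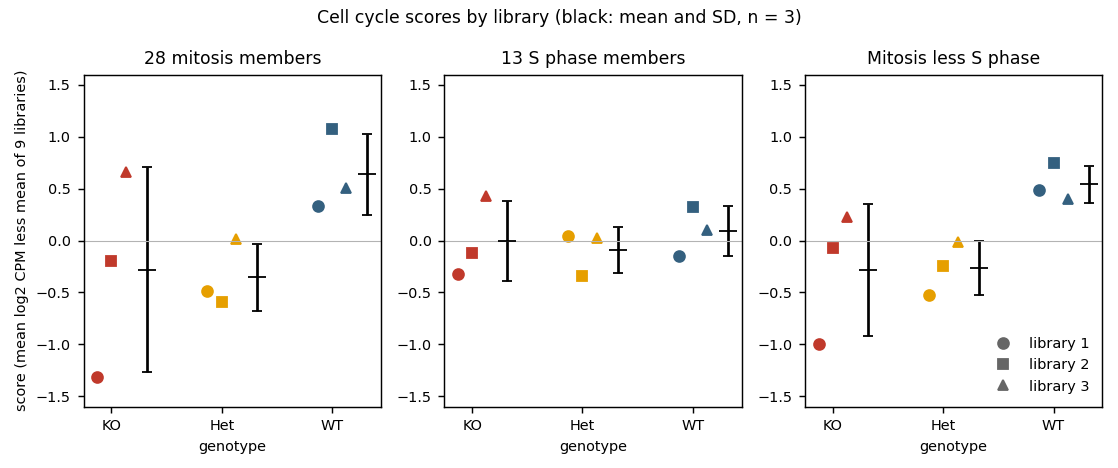
Score of the 28 mitosis members (left), the 13 S phase members (middle) and their difference (right) in each library, on a log2 CPM scale less the mean of the 9 libraries. Symbols are libraries 1 to 3 of KO, Het and WT, and black marks give mean and SD (n = 3). The mitosis score spans -1.31 to 0.66 in KO, -0.59 to 0.01 in Het and 0.34 to 1.07 in WT, and the S phase scores of the 3 genotypes overlap.

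Single libraries carried much of this. KO library 1 had the lowest level of 14 of the 28 mitosis members and WT library 2 the highest of 19. Reads on the mitosis members together numbered 1443, 2353 and 4518 in the KO libraries, 2292, 2421 and 2910 in Het, and 3834, 7269 and 4429 in WT. A pair of members had no read in 1 library each: Bub1, a checkpoint kinase, in KO library 1, where 3 counts would be 0.165 CPM, and Ccne1, cyclin E1, in Het library 2, where 3 counts would be 0.138 CPM. Such limits cover counting error only.

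**Figure D2:**
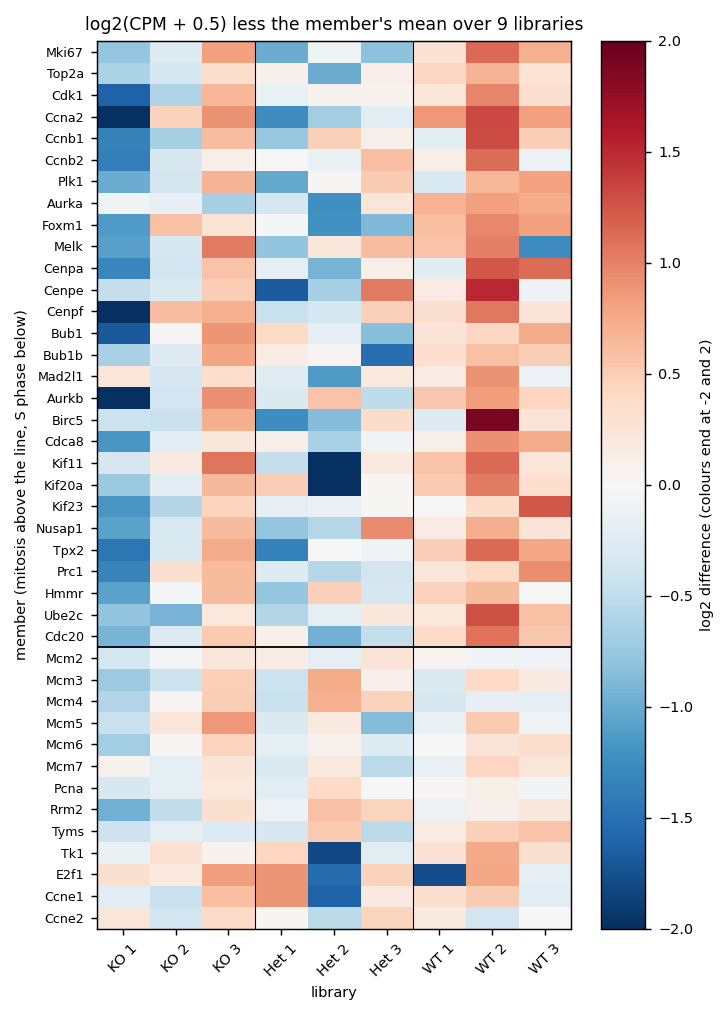
Each member's log2(CPM + 0.5) in each of the 9 libraries, less its own mean over them (red higher, blue lower, colours ending at -2 and 2). In KO library 1, 27 of 28 mitosis members and 10 of 13 S phase members are blue, and in WT library 2, 28 of 28 and 10 of 13 are red.

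In KO against WT no member passed the test. Every mitosis member had a negative log2 fold change, with a median of -0.77 and a range from -1.25 to -0.27, while 49.4% of all genes tested were negative and their median was 0.01. S phase members were split, with 9 of 13 negative and a median of -0.14, which was 0.01 without WT library 2 (6 of 13 negative) and -0.29 without KO library 3 (11 of 13). Without KO library 1 or 2 it was -0.01 or -0.04, and without the 3 libraries low in Sbp -0.34. EdgeR's quasi-likelihood test with Benjamini-Hochberg adjustment called 0 of the 41 members, and 0% of the 16836 genes tested (adjusted p = 1 for each member). DESeq2, limma voom and limma voom with quality weights also called none of the members, and over all genes they called 14, 0 and 0. At an unadjusted p under 0.05 stood 2 of the 28 mitosis members (7.14%), both lower, and no S phase member, where 1.37% of all genes were lower and 2.2% higher at that level. All KO libraries lay below all WT libraries for 2 mitosis members (7.14%) and 1 of 13 S phase members (7.69%), close to the 6.04% of all genes. No member had all KO libraries above all WT libraries, as 8.14% of all genes did. Members move together across libraries, so a count of signs is not a count of independent observations.

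Of the APC/C partners, Ube2c (chromosome 2, 164769898 to 164778822), the E2 enzyme that starts ubiquitin chains on cyclin B, stood at 3.52, 3.13 and 7.48 CPM in KO and at 7.48, 16.2 and 9.85 CPM in WT. The highest KO library and the lowest WT library met, and the log2 fold change was -1.25 (SE 0.46, 95% interval -2.26 to -0.23, n = 3 per group). Ube2c lies over the opposite strand's Tnnc2, a skeletal muscle troponin, which had 0 reads in every library. How reads in that overlap were counted is not described. Cdc20 (chromosome 4, 118432901 to 118437352), the APC/C activator of early mitosis, stood at 3.46, 5.75 and 10.3 CPM (KO) and at 9.36, 15.6 and 10.5 CPM (WT), with a log2 fold change of -0.86 (SE 0.46). KO library 3 lay within the WT range for Cdc20.

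Of the 8 kinases, cyclins and factors of mitotic entry, 2 stood apart below WT. They were the only 2 of the 28 mitosis members to do so (7.14%), near the 6.04% of all genes. Aurka (chromosome 2, 172356190 to 172370535), the centrosomal kinase that builds the spindle poles, was at 6.59, 6.20 and 4.24 CPM in KO and at 11.7, 12.8 and 12.1 CPM in WT. No KO library reached the WT range, KO library 3 was here the lowest rather than the highest, and the log2 fold change was -1.10 (SE 0.40, interval -2.01 to -0.20). Foxm1 (chromosome 6, 128362967 to 128376146), the transcription factor of the mitotic wave, was at 1.54, 6.20 and 4.92 CPM in KO against 6.28, 8.21 and 7.41 CPM in WT. The groups did not overlap, though KO library 2 came within 0.1 CPM of WT library 1, and the log2 fold change was -0.79 (SE 0.55). Cdk1, the kinase that drives mitosis, had -0.83 (SE 0.54), and its partners Ccnb1 and Ccnb2, the B cyclins, had -1.02 (SE 0.71) and -0.98 (SE 0.54). Ccna2, cyclin A2, was at 0.494, 5.75 and 7.95 CPM in KO against 7.74, 10.8 and 7.47 CPM in WT, so that the difference (-0.87, SE 0.75) rested mostly on KO library 1. Plk1, polo-like kinase 1, and Melk, a kinase of proliferating cells, had -0.59 (SE 0.64) and -0.27 (SE 0.86).

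Mki67 (chromosome 7, 135689784 to 135716361) stood at 10.4, 14.8 and 32.5 CPM in KO and at 22.3, 40.6 and 29.9 CPM in WT. KO library 3 exceeded 2 of the 3 WT libraries, and the log2 fold change of -0.68 (SE 0.43, interval -1.65 to 0.28) was within the spread. Top2a (chromosome 11, 98992943 to 99024189), which untangles sister DNA, was at 19.3, 23.9 and 38.8 CPM in KO against 41.1, 48.6 and 36.8 CPM in WT, with -0.63 (SE 0.34). The 9 members of the centromere, checkpoint and chromosomal passenger complex (Cenpa, Cenpe, Cenpf, Bub1, Bub1b, Mad2l1, Aurkb, Birc5 and Cdca8) ran from -1.10 for Cenpa, the centromeric histone, to -0.29 for Mad2l1, a checkpoint protein, with a median of -0.76. Cenpa was at 1.76, 3.81 and 7.79 CPM in KO and at 4.24, 12.8 and 11.6 CPM in WT (SE 0.60), and KO library 3 overlapped the WT range. Cdca8, borealin of the passenger complex, was at 1.59, 3.47 and 4.97 CPM in KO against 4.55, 8.26 and 7.31 CPM in WT (-1.002, SE 0.49). The 7 spindle motors and microtubule binding proteins (Kif11, Kif20a, Kif23, Nusap1, Tpx2, Prc1 and Hmmr) ran from -1.06 for Kif23, a motor of cytokinesis, to -0.30 for Kif11, the motor that separates spindle poles. None of these 7 had KO libraries that stood apart from the WT libraries.

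**Figure D3:**
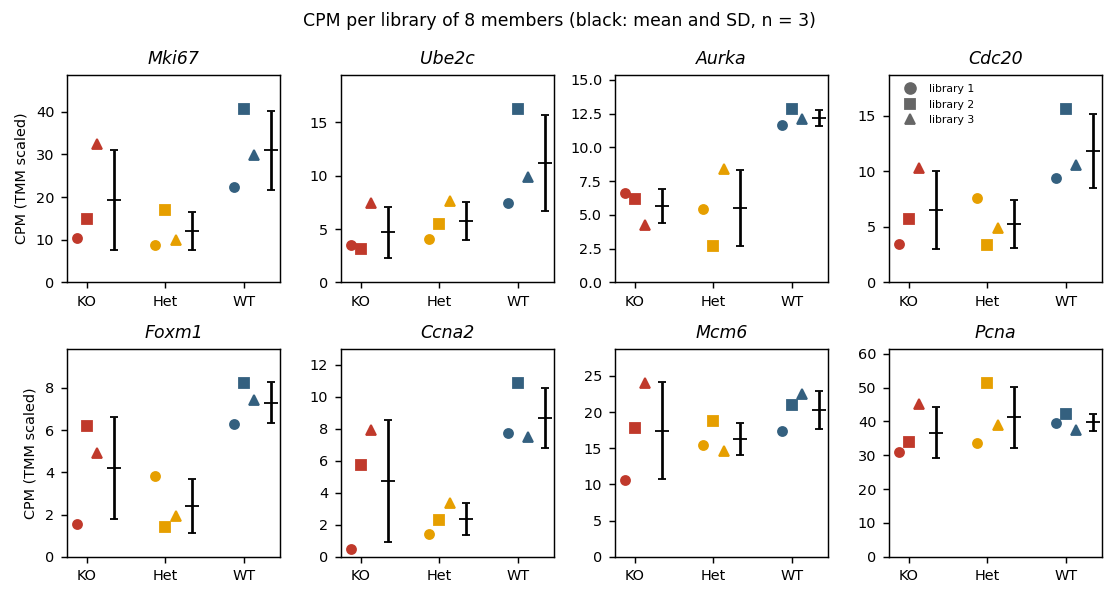
CPM of 8 members in each library of KO, Het and WT, with mean and SD in black (n = 3) and axes starting at 0. For Aurka and Foxm1 no KO or Het library reaches the WT range, whereas for Pcna the genotypes overlap at 31.0 to 51.2 CPM.

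S phase members showed no common direction in KO against WT. Tyms (chromosome 5, 30058202 to 30073617), thymidylate synthase, was the 1 member whose groups stood apart, at 5.88, 6.997 and 6.54 CPM in KO against 9.05, 11.3 and 12.2 CPM in WT (log2 fold change -0.75, SE 0.34, edgeR adjusted p = 1). Rrm2, the small subunit of ribonucleotide reductase, and Tk1, thymidine kinase, had -0.37 (SE 0.34) and -0.40 (SE 0.49). The 6 MCM subunits and Pcna lay between -0.27 and 0.29. Mcm3, Mcm6 and Mcm7 had -0.27 (SE 0.44), -0.22 (SE 0.29) and -0.14 (SE 0.25), and Mcm4 and Mcm5 had 0.29 (SE 0.37) and 0.20 (SE 0.45). For Mcm2 and Pcna, with at least 345 reads in every library, the 95% intervals were -0.47 to 0.44 and -0.56 to 0.33, which leave room for changes of either sign of that size. E2f1, the activating E2F factor, had 0.60 (SE 0.87) and was at 0.471 CPM in WT library 1 against 2.44 to 5.39 CPM in the other WT libraries and the KO libraries. Ccne1 and Ccne2, the E cyclins, had -0.26 (SE 1.24) and 0.21 (SE 0.61).

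The size of the mitotic difference in KO against WT depended on which libraries were kept. Its median was -0.40 without KO library 1 (25 of 28 negative), -1.31 without KO library 3 and -0.45 without WT library 2 (24 of 28 negative). The 2 members at an unadjusted p under 0.05 became 1 without KO library 1 or 2, 0 without WT library 2, and 11 without KO library 3. Leaving out WT library 1 or Het library 2 gave 3. Shares of all genes at that level were not counted in these refits, so the counts have no background beside them. Without the 3 libraries low in Sbp, which leaves WT library 2 as the only WT library and assumes that it varies like the others, the median was -1.04. Of the skeletal muscle markers 15 of 15 tested were positive in KO against WT, and 3 (20%) stood apart above WT, where 8.14% of all genes did. Their summed level was 812, 6734 and 1209 CPM in KO and 348, 683 and 1421 CPM in WT. It was highest in KO library 2 and overlapped otherwise, with Tnnc2 at 0 throughout. Adding the skeletal muscle score to the fit gave a mitosis median of -0.79 (25 of 28 negative), and none had an unadjusted p under 0.05. The muscle markers had a median log2 fold change of 3.61 in KO against WT, and the SE of Mki67 rose from 0.43 to 0.69 in that fit. Muscle content and genotype are therefore poorly told apart by it. Proximal luminal markers were positive in 9 of 9 (median 1.55), and 7 of 9 (77.8%) stood apart above WT, where 8.14% of all genes did. Their summed level, 2012 to 2096 CPM in KO and 738 to 2835 CPM in WT, was mostly Clu. Seminal vesicle markers were positive in 9 of 11 (median 1.90), and 5 (45.5%) stood apart above WT, against the same 8.14% of all genes. Their summed level was 97430 to 196000 CPM in KO and 31360 to 222100 CPM in WT. Basal markers were positive in 9 of 10 (622 to 911 CPM in KO, 439.4 to 634 CPM in WT) and fibroblast and endothelial markers in 9 of 11 each (961 to 1232 and 93.9 to 192 CPM in KO, 539 to 1066 and 77.1 to 130 CPM in WT). Macrophage markers were mostly negative (8 of 10), as were the tested red cell markers (4 of 5). The part of the proximal luminal, basal, fibroblast, endothelial, macrophage and red cell markers in the result was not tested. Adding the seminal vesicle score to the fit gave a mitosis median of -0.94 (27 of 28 negative).

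In Het against WT no member passed either. All 28 mitosis members had a negative log2 fold change, with a median of -0.84 and a range from -1.88 to -0.29, where 50% of all genes were negative and their median was 0. For 12 of the 28 (42.9%) every Het library lay below every WT library, against 8.59% of all genes tested, and for none did Het lie wholly above WT, as for 4.7% of all genes. None of the 41 members was called by edgeR (0% of all genes, lowest adjusted p among members 0.432), by DESeq2 (201 genes called in all), by limma voom (0 in all) or by limma voom with quality weights (793 in all). At an unadjusted p under 0.05 were 5 mitosis members (17.9%), all lower, where 5.61% of all genes were lower and 3.43% higher at that level. S phase members had 6 of 13 negative and a median of 0.05, and none stood apart. That median was -0.21, -0.14 and -0.17 without Het library 1, 2 and 3, -0.08 without WT library 1, 0.14 without WT library 2 and 0.01 without WT library 3, so its sign turned on single libraries. The WT libraries are the same in both comparisons, so the values for KO and Het are not independent of each other.

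Mki67 had the smallest p of the mitosis members in Het against WT, at 8.86, 17.1 and 10.04 CPM in Het against 22.3, 40.6 and 29.9 CPM in WT. Every Het library was below every WT library, and the log2 fold change was -1.37 (SE 0.44, interval -2.35 to -0.38, edgeR adjusted p = 0.432, and 0.0569 to 0.922 over the alternatives run). Top2a, at 32.5, 14.9 and 33.3 CPM in Het and 41.1, 48.6 and 36.8 CPM in WT, had no overlap either (-0.65, SE 0.34). Aurka read 5.46, 2.71 and 8.39 CPM in Het against 11.7, 12.8 and 12.1 CPM in WT (-1.15, SE 0.40). Foxm1 was at 3.84, 1.43 and 1.93 CPM in Het against 6.28, 8.21 and 7.41 CPM in WT (-1.61, SE 0.57), with every Het library below the WT range.

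**Figure D4:**
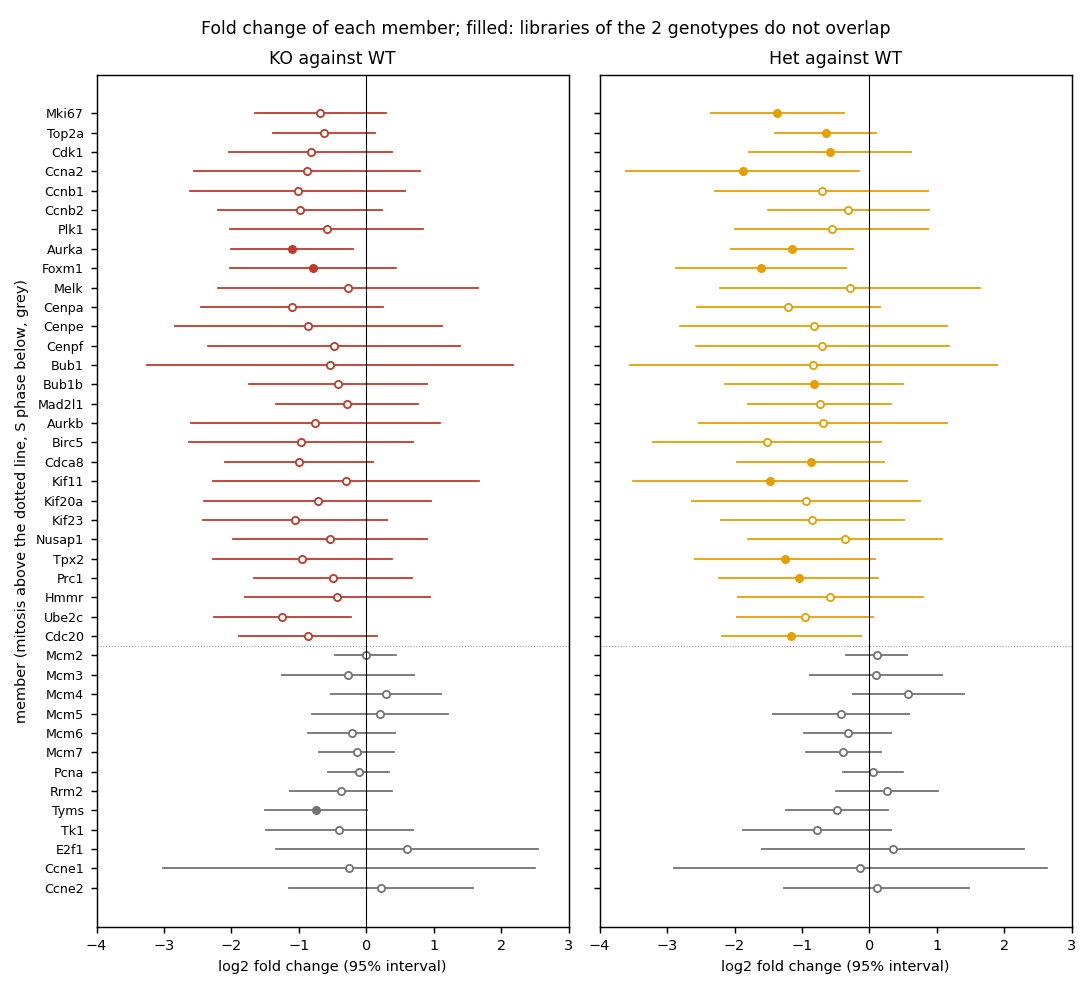
Log2 fold change with 95% interval of each member in KO against WT (left) and Het against WT (right). Filled points mark members whose libraries do not overlap between the 2 genotypes, and S phase members are grey. All 28 mitosis points lie left of 0 in both panels, from -1.25 to -0.27 in KO and from -1.88 to -0.29 in Het, and most intervals cross 0.

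Ccna2 (chromosome 3, 36564865 to 36572150) had the most negative value in Het, at 1.41, 2.30 and 3.37 CPM in its libraries and 7.74, 10.8 and 7.47 CPM in those of WT (-1.88, SE 0.77). It overlaps Exosc9, a gene on the opposite strand, and whether the libraries are stranded is not stated. Cdc20 stood at 7.62, 3.36 and 4.91 CPM in Het and at 9.36, 15.6 and 10.5 CPM in WT (-1.16, SE 0.46). Ube2c, at 4.11, 5.52 and 7.62 CPM in Het, overlapped WT library 1 at 7.48 CPM (-0.96, SE 0.45). Of the other members, Cdk1, Tpx2 (an activator of Aurora A), Prc1 (which bundles the central spindle), Kif11, Cdca8 and Bub1b (the checkpoint kinase BUBR1) also stood apart from WT. Their log2 fold changes ran from -1.47 for Kif11 to -0.58 for Cdk1. Kif11 owed much of this to Het library 2, where it had 2 reads (0.0919 CPM), against 2 and 3.48 CPM in Het libraries 1 and 3.

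S phase members took both directions in Het. Mcm4 was at 7.89, 18.2 and 15.1 CPM in Het against 8.58, 9.63 and 9.44 CPM in WT (0.57, SE 0.37). Rrm2 had 0.26 (SE 0.34), Mcm2 0.11 (SE 0.20) and Pcna 0.05 (SE 0.20, interval -0.40 to 0.50). Tk1 was at 13.7, 2.53 and 8.67 CPM in Het against 12.4, 17.5 and 12.7 CPM in WT (-0.77, SE 0.49), and Mcm7 and Tyms had -0.39 (SE 0.25) and -0.47 (SE 0.34). Het library 2, low in Sbp, held both the highest Pcna, Mcm3, Mcm4 and Rrm2 levels and the lowest Tk1, Ccne1 and Ccne2 levels of the 9 libraries.

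Leaving out WT library 2 reduced the median of the mitosis members in Het against WT to -0.59 (25 of 28 negative) and left none at an unadjusted p under 0.05. Without Het library 2 or WT library 3, 2 and 3 members were at that level. Shares of all genes at that level were not counted in the refits. Without the 3 libraries low in Sbp the median was -1.12. That fit keeps WT library 2, where 19 of the 28 mitosis members were highest, as the only WT library. With the number of genes detected as a covariate, an alternative chosen after the values were seen, the median was -0.99. No member was then at an unadjusted p under 0.05. Every Het library (16878 to 17804 genes detected) was below every WT library (17940 to 20566), so that number and genotype cannot be told apart in this fit. Markers of several other cell types had negative values in Het too: 11 of 11 endothelial markers were negative, at summed levels of 41.2 to 52.7 CPM in Het and 77.1 to 130 CPM in WT. Macrophage markers were negative in 9 of 10 (71.6 to 99.0 CPM in Het, 121 to 173 CPM in WT) and fibroblast markers in 10 of 11 (404 to 709 CPM in Het, 539 to 1066 CPM in WT). All 5 tested red cell markers were negative (9.99 to 27.7 CPM in Het, 49.2 to 82.2 CPM in WT), as were all 6 tested B and plasma cell markers (5.19 to 18.8 CPM in Het, 22.5 to 54.5 CPM in WT). Skeletal muscle markers were negative in 14 of 15 tested, basal markers in 8 of 10 and seminal vesicle markers in 7 of 11, with summed levels that overlapped WT. Prostate secretory luminal markers were split (6 of 12 negative), as were T and NK cell markers (3 of 6 tested). Proximal luminal markers went the other way, positive in 9 of 9 (median 0.735), and smooth muscle markers were positive in 6 of 9. However, 0 of the 9 proximal luminal markers stood apart above WT, where 4.7% of all genes did. Their summed level was 524, 4850 and 2405 CPM in Het libraries 1, 2 and 3, against 738 to 2835 CPM in WT. Het library 1 lay below every WT library for Psca, Ly6d and Clu. The part of these cell types in the mitotic difference was not tested, beyond fits that added the skeletal muscle score, the seminal vesicle score or Sbp.

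No member passed the test between KO and Het. Of the mitosis members 10 of 28 were negative in KO against Het (median 0.13, against 0.02 and 48% negative for all genes), and of the S phase members 7 of 13 (median -0.12). None of the 41 was called by edgeR, where 0% of all genes were (lowest adjusted p among members 0.886). None was at an unadjusted p under 0.05, where 1.81% of all genes were lower and 4.42% higher. None stood apart in either direction, where 4.12% of all genes stood apart as lower in KO and 7.8% as higher. Mki67 had the smallest p among mitosis members (0.68, SE 0.44, interval -0.29 to 1.66) and Ccnb2 the smallest on the negative side (-0.67, SE 0.54), at 1.37, 3.36 and 4.66 CPM in KO and 4.27, 3.91 and 6.79 CPM in Het. Rrm2 had the smallest p among S phase members (-0.63, SE 0.34), at 7.85, 11.2 and 19.8 CPM in KO and 14.6, 24.0 and 21.6 CPM in Het. The median for mitosis members turned to -0.43 without KO library 3 and was 0.48 without KO library 1.

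Other genes of the cycle were counted from lists made by function. Of 49 further mitosis genes, 41 were negative in KO against WT (median -0.38) and 42 in Het against WT (median -0.79), none called in either. In Het, 13 of the 49 (26.5%) stood apart below WT, where 8.59% of all genes did. At an unadjusted p under 0.05, 8 (16.3%) were lower, where 5.61% of all genes were. Ect2, the exchange factor that starts cytokinesis, had the smallest p there, at 1.89, 1.61 and 1.43 CPM in Het against 2.98, 7.95 and 7.62 CPM in WT (-1.91, SE 0.59), followed by Cks1b, a CDK subunit (-0.73, SE 0.25). In KO, 2 of the 49 (4.08%) stood apart below WT, a smaller share than the 6.04% of all genes. Cdca3, a mitotic entry factor, had the smallest p there (-0.95, SE 0.44).

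Among 37 tested replication genes outside the members, 28 were negative in KO against WT (median -0.28, with 6, or 16.2%, standing apart below WT) and 33 in Het against WT (median -0.41, with 10, or 27%, standing apart). The shares of all genes standing apart below WT were 6.04% in KO and 8.59% in Het. Orc1 did not pass the low-count filter. Cdc45, which activates the MCM helicase, was at 2.31, 1.93 and 2.25 CPM in KO against 2.88, 6.26 and 5.86 CPM in WT (-1.21, SE 0.51). Gins1, of the same helicase complex, was at 2.70, 2.39 and 2.21 CPM in Het against 4.45, 7.59 and 4.61 CPM in WT (-1.19, SE 0.44). This wider set of replication genes lay lower relative to WT than the 13 S phase members did, whose medians were -0.14 and 0.05, and that contrast between lists was not tested. The edgeR adjusted p was 1 for each of these genes in KO and 0.478 or above in Het.

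Genes that act before S phase and brakes of the cycle were counted as well. Of 25 G1 cyclins, kinases and regulators, 17 were negative in KO against WT (median -0.11) and 19 in Het (median -0.14). Ccnd2, cyclin D2, stood apart above WT, at 41.2, 53.5 and 49.5 CPM in KO against 14.8, 32.7 and 24.2 CPM in WT (1.01, SE 0.33, edgeR adjusted p = 1). Ccnd1, cyclin D1, varied widely within genotypes, at 135 to 411 CPM in KO, 54.8 to 917.5 CPM in Het and 108 to 480 CPM in WT. Cdk6, a cyclin D kinase, was at 28.9, 33.5 and 29.1 CPM in Het against 15.4, 24.9 and 18.2 CPM in WT (0.64, SE 0.24), and Cdk2, the cyclin E kinase, at 14.3, 10.7 and 7.12 CPM in Het against 17.0, 18.6 and 14.8 CPM in WT (-0.65, SE 0.28). The 18 inhibitors had medians of -0.07 in KO and 0.12 in Het, with none at an unadjusted p under 0.05. Cdkn3, a phosphatase that acts on CDKs, had the most negative value among them in KO (-2.78, SE 1.48), at 0.165, 0.0569 and 0.628 CPM in KO and 2.56, 2.84 and 0.570 CPM in WT, and the groups overlapped. Cdkn1a, p21, had 0.28 (SE 0.35) in KO and 0.35 (SE 0.35) in Het, and Cdkn1b, p27, had -0.16 (SE 0.20) and 0.14 (SE 0.20).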

How the data were processed

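The authors deposited raw read counts per gene, whole numbers without normalisation, and FPKM values per library, which per the file headers come with gene length. Per the submitters' processing notes, reads were placed on GRCm38, also written mm10. The aligner, the counter and any use of strand stay unnamed in the labels and headers. Of the 41 members, 17 overlap another gene, and for 9 of them (Ccna2, Ccne2, Cdc20, Cdca8, Kif20a, Mcm7, Nusap1, Prc1 and Tk1) that gene had over 100 reads, so shared reads cannot be told apart. The authors' FPKM table by genotype was not used.

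Genotypes came from the library names in the descriptions, and replicates were numbered in accession order. Counts were tested with edgeR 4.0.16 (R 4.3.3), quasi-likelihood, robust, TMM, filterByExpr, all 9 libraries in 1 model with genotype as the factor. P-values were adjusted by Benjamini-Hochberg over all genes tested, with calls at 0.05. Each SE was obtained by dividing the size of the log2 fold change by the root of F. Scores use log2 CPM with a prior count of 2. The test was checked on simulated counts with the same spread for every gene and changes planted only in better expressed genes. That check does not show how the test performs at other spreads or at low counts. Alternatives used DESeq2 1.42.0 and limma 3.58.1.

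The members and lists were chosen with earlier results of these data known. By rule, Mki67, Ube2c and up to 6 members of each phase with the smallest p in the main direction (3 in the other) were given per comparison, as were up to 3 genes per direction of each other list. Ect2, Cks1b, Cdca3, Cdc45, Gins1, Ccnd2, Cdk6 and Cdk2 were among the 3 with the smallest p of their lists in a direction, and Ccnd1, Cdkn1a and Cdkn1b were always given. Other named members, such as Plk1, Melk, Kif23 and Kif11, were chosen after their values were seen. Per-library depth was 16233392 to 24017791 counts. Comparing the counts of each pair of libraries, chi-square over degrees of freedom was at least 40, far above sampling noise, and no library was a duplicate.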

Additional observations from a re-analysis of the deposited data

How the results depend on the processing

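No member was called in any comparison under any of the 24 alternatives per comparison: 3 normalisations, 2 low-count filters, DESeq2, limma voom with and without quality weights, log2(FPKM + 0.1) in limma, a fit of 2 genotypes, 9 omissions of 1 library, omission of the 3 libraries low in Sbp, and 4 covariates. Over all genes edgeR called 0 in each comparison. In Het against WT, DESeq2 called 201, voom with quality weights 793, edgeR without Het library 1 258, edgeR with the seminal vesicle score 222, limma on FPKM 4 and edgeR without the 3 libraries low in Sbp 1. Between KO and Het these gave 167, 319, 18, 26, 3 and 1, and no low-count filter 2. In KO against WT, DESeq2 called 14, and edgeR called 1 without Het library 1 and 1 in the fit of 2 genotypes. In KO against WT, mitosis members at an unadjusted p under 0.05 numbered 2, and 0 to 12 over the alternatives. For Het against WT they numbered 5, and 0 to 13 over the alternatives. The share of all genes at that level was counted for the main fit only, so these ranges have no background beside them. The mitosis median ran from -1.31 to -0.40 in KO against WT and from -1.09 to -0.59 in Het against WT over the omissions of 1 library, and from -1.06 to -0.73 and from -1.12 to -0.77 over the other alternatives. The S phase median in Het against WT, 0.05, moved by more than 1 SD to -0.23 without the 3 libraries low in Sbp and to -0.30 with Sbp as a covariate, and ran from -0.21 to 0.14 over the omissions. In KO against WT it ran from -0.29 to 0.01 over the omissions and from -0.34 to -0.10 over the others. In KO against Het, the sign turned for Mki67 with the seminal vesicle score (-0.17) and for Ube2c with genes detected (0.005). Under 5 other scalings the Het libraries stood apart below WT for 11 or 12 mitosis members and the KO libraries for 1 or 2. No paired analysis was possible because the labels carry no replicate numbers. A mitosis member had a median of 29 reads in KO library 1 and of 63.5 to 85 in the Het libraries, which limits precision.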
